A study of Mus musculus with 8 samples.

Results

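The proteasome subunit genes of mouse acute myeloid leukaemia cells were followed across 4 labelled times in a model of inducible Klf4 expression. They were the protein-coding genes of GENCODE mouse release M21 whose symbols are Psma, Psmb, Psmc or Psmd with a number, without the immunoproteasome genes Psmb8, Psmb9 and Psmb10. This gave 36 genes of 47069 gene rows, 16 of the 20S core (8 Psma and 8 Psmb) and 20 of the 19S cap (6 Psmc and 14 Psmd). The cells carried MLL-AF9, the fusion protein that makes these leukaemias, and TetO-Klf4, a transgene from which doxycycline switches on the transcription factor KLF4. They were GFP+ cells sorted from leukaemic mice, the labels give bone marrow as tissue and C57BL/7 as strain, and RNA was sequenced at times labelled 0h, 6h, 12h and 24h, with 2 libraries each. The event that starts the clock, the age of the mice, the promoter of the tetracycline-dependent activator, and whether the 2 libraries of a time came from separate mice are not in the labels. P-values thus speak of the spread between libraries alone, and that spread may be technical. All groups carry the same alleles, so 0h is the only background, and no doxycycline control that lacks the transgene was analysed here.

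The proteasome is the protease complex that degrades proteins tagged with ubiquitin. Its core is a barrel of stacked rings: outer alpha rings of Psma subunits that gate the entry, and inner beta rings of Psmb subunits, of which Psmb5, Psmb6 and Psmb7 carry the active sites. The cap sits on the barrel, binds and removes ubiquitin, and threads the substrate into the core with a ring of Psmc ATPases held by Psmd subunits. Leukaemia cells, like other fast-growing cells, depend on it, and inhibitors of the Psmb5 site are used as drugs against blood cancers.

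The upstream sequences of 3 members are shown because they stand at both ends of the results: Psmb6 is among the members that fell most, Psmb5 is the active-site subunit that fell least, and Psmd8 did not pass the test at any time. Each is the 250 bases before the RefSeq gene start, read 5′ to 3′ on the gene's strand from build GRCm38.p6, which has the same coordinates as mm10: chr11:70525107-70525356 on the plus strand for Psmb6, chr14:54617996-54618245 on the minus strand for Psmb5 and chr7:29180674-29180923 on the minus strand for Psmd8. Capitals mark TGACNNNGC, the antioxidant response element, a motif known to be bound by NRF1 (Nfe2l1) and NRF2 (Nfe2l2), searched on both strands.
Psmb6: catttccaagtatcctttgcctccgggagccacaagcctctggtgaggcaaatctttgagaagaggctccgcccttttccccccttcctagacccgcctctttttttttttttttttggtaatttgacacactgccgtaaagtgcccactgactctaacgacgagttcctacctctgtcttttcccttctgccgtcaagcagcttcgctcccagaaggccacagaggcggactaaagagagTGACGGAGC
Psmb5: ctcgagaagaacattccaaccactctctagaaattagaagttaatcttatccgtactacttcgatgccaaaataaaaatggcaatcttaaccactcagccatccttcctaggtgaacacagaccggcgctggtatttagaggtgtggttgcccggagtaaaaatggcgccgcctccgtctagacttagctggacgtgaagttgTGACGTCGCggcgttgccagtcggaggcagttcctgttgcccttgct
Psmd8: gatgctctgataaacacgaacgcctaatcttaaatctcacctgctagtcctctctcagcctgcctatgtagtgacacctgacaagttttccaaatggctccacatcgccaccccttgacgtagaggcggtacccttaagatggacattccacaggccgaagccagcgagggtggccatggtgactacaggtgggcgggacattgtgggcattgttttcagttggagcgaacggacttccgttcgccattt
The match begins 9 bases before the start in Psmb6 and 47 bases before it in Psmb5, and there is none in the Psmd8 stretch. A promoter of this table was found for 29 of the 36 members, and its 300-base window, which runs on into the first 50 bases of the gene, held TGACNNNGC in 5 of them: Psmb5, Psmb6, Psmc6, Psmd9 and Psmd12. By windows this was 16.1% of 31 for the members and 12.4% of all 32851. The other motifs searched, also on both strands, were CCAAT, found in 12 of 29 members (38.7% of their windows against 37.4% of all), and GGGNGGGGC, a KLF motif, found in 7 of 29 (22.6% against 17.0%). A match is a description of the letters and not a measured site.

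Gene counts per library ran from 20394546 to 26041347. Values below are CPM, a gene's counts put on a common library total with TMM factors. Log2 fold changes come from edgeR's quasi-likelihood fit of all 8 libraries, and calls need an adjusted p (Benjamini-Hochberg, over the 14263 genes tested) under 0.05. Klf4, the induced gene, was at 2.71 and 4.42 CPM at 0h and at 76.8 CPM or more in each later library. Klf4 was highest at 6h and then fell. Over the alternative settings its log2 fold change was -0.49 to -0.39 from 6h to 12h and -0.56 to -0.51 from 12h to 24h. In bulk RNA a lower level can come from fewer cells of a type or from less RNA per cell, and these cannot be told apart here. All 3 leukocyte markers and all 4 genes of the MLL-AF9 programme (Hoxa9, Hoxa10, Meis1, Pbx3) were present, with summed levels of 1300.4 to 1423 and 925 to 977 CPM over the libraries. Of the defining markers of other cells, Cd3e and Cd3g of T cells and Ms4a1 and Pax5 of B cells were at 0 in all libraries. The 5 T cell markers summed to at most 0.184 CPM, the 4 B cell markers, nearly all Cd79b, to 8.51 to 12.1 CPM, the 6 erythroid markers to at most 2.0 CPM and the 4 megakaryocyte markers to 7.94 to 13.4 CPM. The 5 stroma and endothelium markers summed to 183 to 187 CPM at 0h and 139 to 145 CPM by 24h, nearly all from Pecam1, which blood cells also make. Some measures moved with time as the proteasome genes did. The 6 myeloid progenitor markers summed to 2245 and 2308 CPM at 0h and to 1817 and 1897 CPM by 24h. Ctsg was the highest of them, at up to 1541 CPM in a library, and weighs most in the sum. Reads counted to no gene made up 5.47% of a 0h library on average, 6.21% by 6h, 8.63% by 12h and 9.15% by 24h. The part of these measures in the results was not tested.

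Most proteasome mRNAs fell, in the core and in the cap. The 16 core genes summed to 3044 and 3050 CPM at 0h, then to 2616 and 2757 by 6h, 2459 and 2403 by 12h and 2359 and 2294 by 24h. The 20 cap genes summed to 4087 and 4182 CPM at 0h, then to 3688 and 3781 by 6h, 3395 and 3306 by 12h and 3255 and 3266 by 24h. For both sums each later library lay below both 0h libraries, and the 12h and 24h libraries lay below both 6h libraries. The mean core sum was lower than at 0h by 11.8% at 6h, 20.2% at 12h and 23.6% at 24h, and the mean cap sum by 9.67%, 19% and 21.1%. As a share of all gene counts the 36 genes went from 0.698% ± 0.00239 (SD, n = 2) at 0h to 0.568% ± 0.00327 (SD, n = 2) at 24h.

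**Figure D1:**
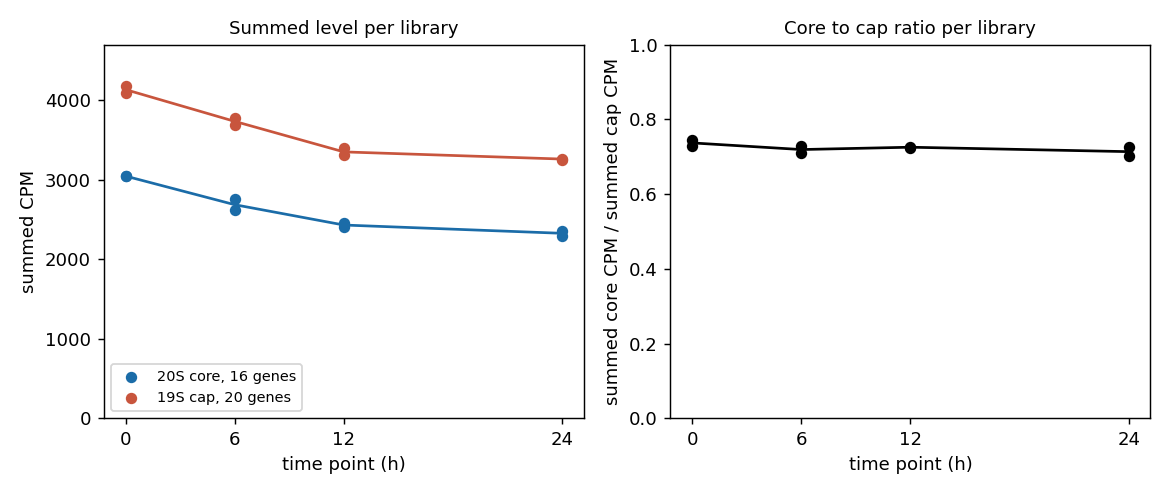
Left, summed CPM of the 16 core genes (blue) and 20 cap genes (red) in each library against time in hours; right, the core sum divided by the cap sum. Points are libraries and lines join the means of 2; core sums go from 3044 and 3050 CPM at 0h to 2359 and 2294 at 24h, and the ratio stays between 0.702 and 0.745.

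Leaving aside Psma8 and Psmb11, 34 members held 553 to 12932 counts a library, or 25.8 to 558 CPM. Exons of 9 members overlap another annotated gene, and since the strand setting of the counting is not given, their reads cannot be told apart with certainty: of the genes described here Psmd9 shares 25.5% of its exon length, Psmb5 12.1% and Psmb7 11.8%. Of the 36 genes, 35 passed the filter on low counts and were tested; Psmb11 was not. At 6h, 26 of 35 were lower than at 0h (12 of 15 core and 14 of 20 cap genes), where 8.58% of all genes tested were called lower. At 12h it was 31 of 35 (13 core and 18 cap) against 21.6% of all genes, and at 24h 32 of 35 (14 core and 18 cap) against 24.8%. No member was called higher at these times; 9.74%, 22.1% and 26.1% of all genes tested were. DESeq2 called 25, 31 and 32 lower and 0 higher. Of all 14263 genes it called 1668, 4668 and 5802, of which 914, 2330 and 2829 were higher. At an unadjusted p under 0.05 edgeR gave 31, 31 and 33 members lower and 0 higher. The share of all genes at that unadjusted threshold is not given here. These comparisons share the 0h libraries. Both libraries of the later time lay below both 0h libraries for 33 of the 35 at each later time, where 29.0%, 35.3% and 36.0% of all genes did, and above both for none, where 27.3%, 35.9% and 38.9% of all genes did.

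The changes were small in size. The median log2 fold change against 0h was -0.16 for the core and -0.16 for the cap at 6h, -0.34 and -0.30 by 12h and -0.37 and -0.37 by 24h, while the median over all genes tested was -0.0036, 0.0018 and 0.017. At 24h all 35 estimates were below 0, from -0.59 to -0.0055, and 22 members were lower by more than 20% and 4 by more than 30%. The SE of a member's log2 fold change at 24h was 0.04 to 0.07, apart from 0.11 for Psma8. The time course test, which asks for any difference among the 4 times, called 33 of 35, all but Psma8 and Psmd8, with 52.8% of all genes called. Tested against a fold of 1.2, 0 members passed at 6h, 14 at 12h and 19 at 24h, all of them lower. Of all 14263 genes 468, 1815 and 2865 passed, of which 434, 1372 and 1897 were higher. Without the first 6h library the 6h medians were -0.13 for the core and -0.12 for the cap. Without the second 0h library they were -0.18 and -0.13. In both fits fewer members were called lower at 6h.

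**Figure D2:**
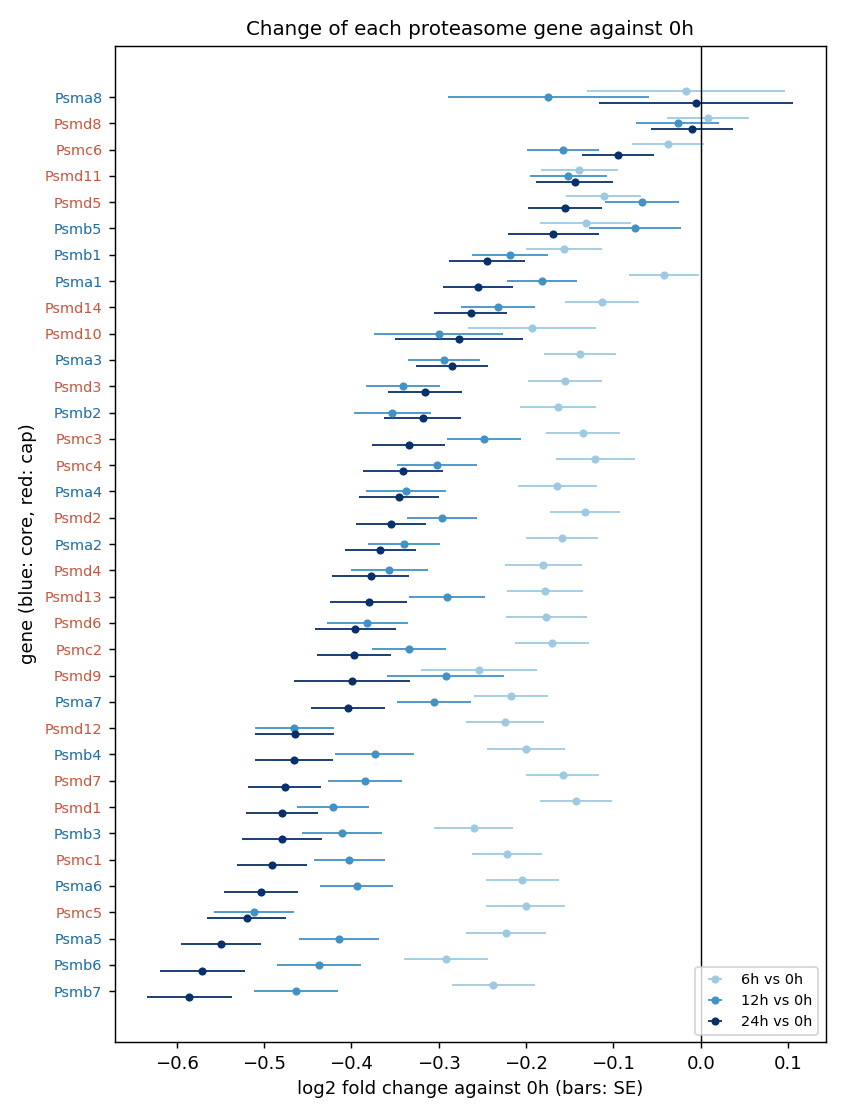
Log2 fold change against 0h (x axis) of the 35 tested proteasome genes (y axis, core names in blue and cap names in red) at 6h, 12h and 24h, ordered by the value at 24h. Points are edgeR estimates and bars their SE; nearly all points lie left of 0, with Psmb7, Psmb6 and Psma5 farthest at 24h and Psma8 and Psmd8 at the line.

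**Figure D3:**
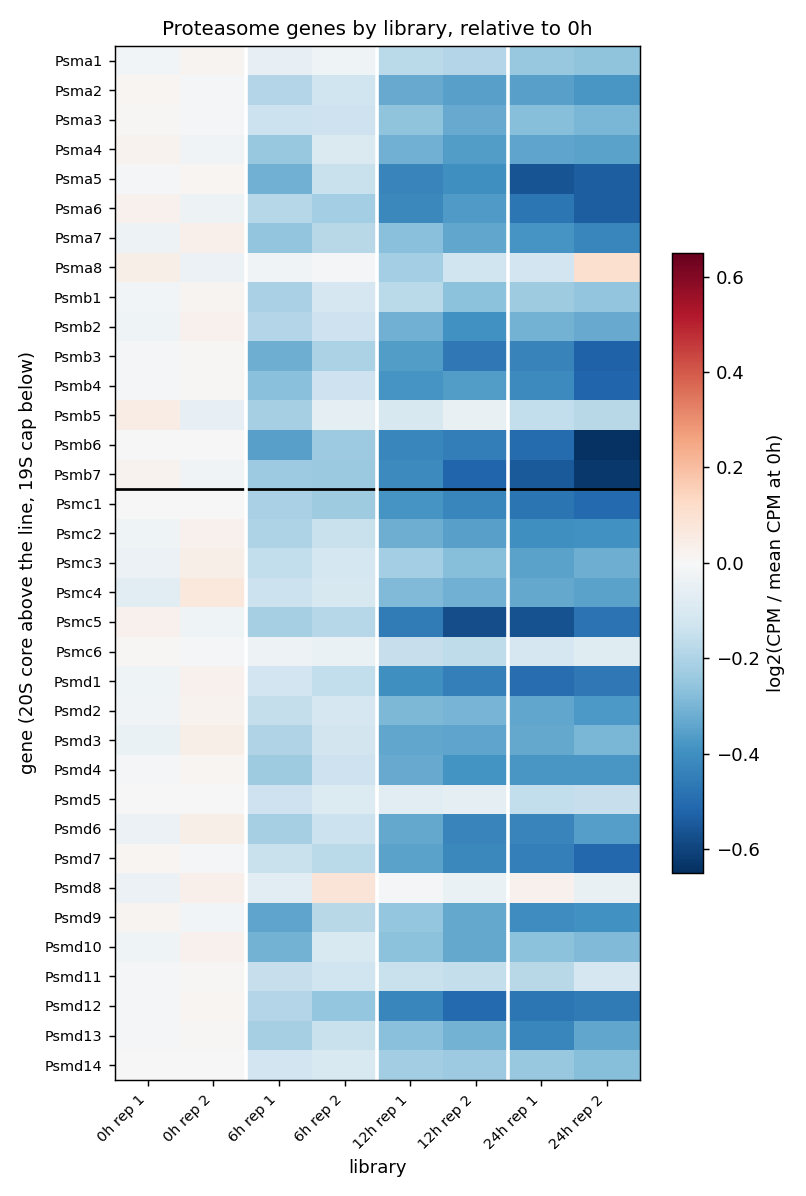
Each tested proteasome gene (rows) in each of the 8 libraries (columns) as the log2 of its CPM over its mean CPM at 0h; blue is lower and red higher, white lines part the time points and the black line parts core from cap. The blue deepens from 6h to 24h in almost every row, and the rows of Psma8, Psmb5, Psmc6, Psmd5, Psmd8 and Psmd11 stay pale.

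The outer alpha ring is built of Psma1 to Psma7, whose tails close the entry to the barrel, and Psma8 is a form of Psma7 made in the testis. Of the 8 genes 6 fell at 6h, 7 at 12h and 7 at 24h, and the ring's summed level was 23.2% lower at 24h. Psma5 stood at 218 and 222 CPM at 0h, then at 177 and 199.6 by 6h, 163 and 167 by 12h and 149 and 152 by 24h. All 6 later libraries lay below both 0h libraries and both 24h libraries were the lowest. Psma5 (ENSMUSG00000068749, chromosome 3, 108256926 to 108279974, plus strand, build mm10) fell by the largest amount of the ring, with log2 fold changes of -0.22, -0.41 and -0.55 (SE 0.05 each) and adjusted p-values of 0.00042, 2.6e-09 and 1.7e-12. Psma6 stood at 271 and 260.3 CPM at 0h, then at 234 and 228 by 6h, 199 and 206 by 12h and 192 and 183 by 24h. Psma6 fell in the same order, with log2 fold changes of -0.20, -0.39 and -0.50 and an adjusted p of 1.7e-12 at 24h. Psma7 stood at 296 and 310.2 CPM at 0h, then at 254 and 267 by 6h, 251 and 239.9 by 12h and 233 and 226 by 24h. Psma7, at 0h the most abundant member per length of the principal transcript, though behind Psma6 and others per length of all exons, was lower in every later library than at 0h and fell by 24.4% at 24h, a log2 fold change of -0.40 (SE 0.04, adjusted p = 4.9e-10).

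Psma2, Psma3 and Psma4 also fell at all 3 times, and their log2 fold changes at 24h were -0.37, -0.28 and -0.35. Their 6h calls were lost with a correction for GC content and length, without the first 0h library and without the first 6h library. That of Psma3 was also lost with library totals and without the second 0h library. Psma1 stood at 259 and 265 CPM at 0h, then at 252 and 257 by 6h, 233 and 229.8 by 12h and 221 and 219 by 24h. Psma1 was not called at 6h, where its log2 fold change was -0.042 (adjusted p = 0.53), and fell by 12h (-0.18) and 24h (-0.25, SE 0.04, adjusted p = 1.9e-06). With a correction for GC content and length the 12h call of Psma1 was lost. Psma8 stood at 10.6 and 10.1 CPM at 0h, then at 10.2 and 10.3 by 6h, 8.91 and 9.48 by 12h and 9.53 and 11.2 by 24h. Psma8 rested on 212 to 277 counts a library and passed no test, its 24h libraries lying on both sides of the 0h libraries, with a log2 fold change of -0.0055 (SE 0.11, adjusted p = 0.97). The sign of this value turned with library totals (0.059) and with the GC and length correction (0.16).

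The inner beta ring holds the active sites, and its median fall at 24h was the largest of the groups of subunits described here. All 7 of 7 tested genes were lower, with a median log2 fold change of -0.47. By summed level the lead was small, 24.2% lower at 24h beside 23.2% for the alpha ring. The alpha ring's median, -0.36, includes Psma8, while the low Psmb11 is not among the 7. Among the active-site subunits Psmb6 and Psmb7 had larger falls than Psmb5. Psmb6 stood at 165 and 165 CPM at 0h, then at 129 and 140.5 by 6h, 123 and 121 by 12h and 117 and 106 by 24h. Every later library was below both 0h libraries, and both 24h libraries were the lowest. Psmb6 (ENSMUSG00000018286, chromosome 11, 70525367 to 70527858, plus strand), the caspase-like subunit, fell by 18.3%, 26.1% and 32.7%, log2 fold changes of -0.29, -0.44 and -0.57 (SE 0.05 each, adjusted p = 1.9e-05, 2.4e-09 and 2.4e-12). Psmb7 stood at 129.9 and 126 CPM at 0h, then at 109 and 108 by 6h, 96.1 and 89.4 by 12h and 87.5 and 82.9 by 24h. Its libraries kept the same order of times as those of Psmb6, with no overlap between times. Psmb7 (ENSMUSG00000026750, chromosome 2, 38588036 to 38644087, minus strand), the trypsin-like subunit, had the largest fall of all members at 24h, 33.3%, with log2 fold changes of -0.24, -0.46 and -0.59 (SE 0.05 each, adjusted p = 0.00033, 6.1e-10 and 1.2e-12).

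Psmb5 stood at 101 and 94.5 CPM at 0h, then at 84.3 and 94.0 by 6h, 91.1 and 94.7 by 12h and 87.7 and 86.4 by 24h. All these libraries lay within 84.3 and 101 CPM, and the 12h values overlapped the 0h values. Psmb5 (ENSMUSG00000022193, chromosome 14, 54614119 to 54618022, minus strand), the chymotrypsin-like subunit and the main target of bortezomib, was not called at 6h (-0.13, SE 0.05, adjusted p = 0.078) or 12h (-0.075, SE 0.05, adjusted p = 0.26), and at 24h it fell by 11%, a log2 fold change of -0.17 (SE 0.05, adjusted p = 0.0068). This 24h call was lost with library totals in place of TMM (-0.10, adjusted p = 0.097) and without the first 0h library (-0.12, adjusted p = 0.14). With a correction for GC content and length Psmb5 was called at all 3 times, at -0.16, -0.16 and -0.24, and Psmb6 and Psmb7 then stood at -0.45 and -0.48 at 24h.

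In each library the Psmb5 level divided by the Psmb6 level was 0.614 and 0.571 at 0h, then 0.652 and 0.669 by 6h, 0.738 and 0.783 by 12h and 0.751 and 0.817 by 24h. Psmb5 divided by Psmb7 was 0.780 and 0.750 at 0h, then 0.775 and 0.869 by 6h, 0.948 and 1.06 by 12h and 1.0 and 1.04 by 24h. Both ratios were higher in the 24h libraries than in the 0h libraries with no overlap. An exact permutation test of 2 libraries against 2 gave a two-sided p of 0.333 for each, which is the smallest this design allows, and the ratios were chosen after the values of these genes had been seen. Psmb6 divided by Psmb7 was 1.29 ± 0.0300 (SD, n = 2) at 0h and 1.31 ± 0.0419 (SD, n = 2) at 24h, which overlap.

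**Figure D4:**
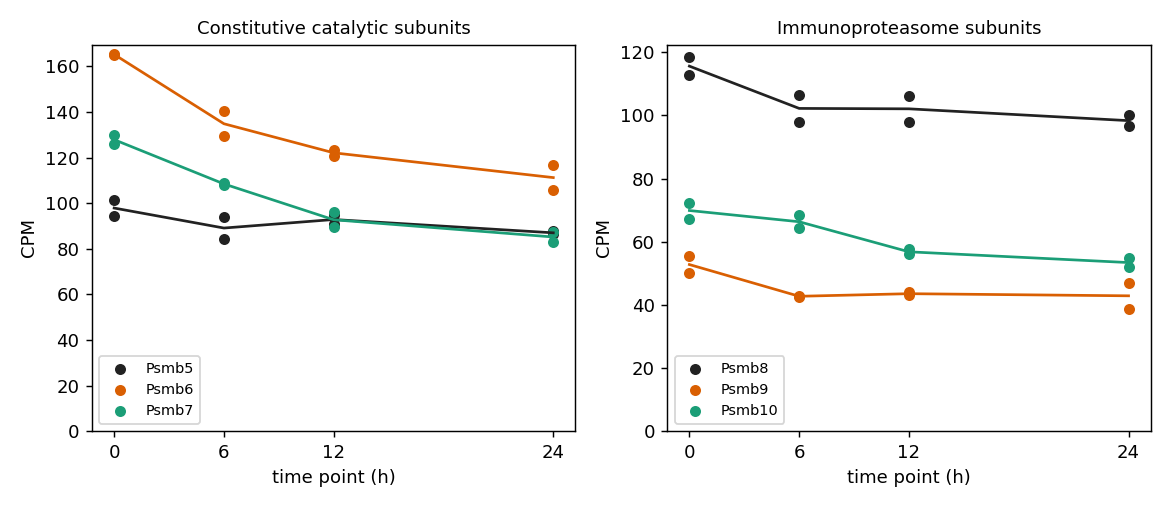
CPM of the active-site subunits of the constitutive proteasome (left: Psmb5, Psmb6, Psmb7) and of the immunoproteasome (right: Psmb8, Psmb9, Psmb10) against time in hours; points are libraries and lines join the means of 2. Psmb6 and Psmb7 go down from 0h to 24h while the Psmb5 libraries stay within 84.3 and 101 CPM.

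The beta subunits without an active site also fell. Psmb3 stood at 215 and 218 CPM at 0h, then at 174 and 187 by 6h, 168 and 157 by 12h and 159.9 and 150.3 by 24h. Each later library lay below both 0h libraries, and the 12h and 24h libraries overlapped. Psmb3 (ENSMUSG00000069744, chromosome 11, 97703399 to 97713500, plus strand) fell early, with a log2 fold change of -0.26 (SE 0.05, adjusted p = 5.1e-05) at 6h, and reached -0.48 (SE 0.05, adjusted p = 4.8e-11) at 24h. Psmb4, which joins the ring late in its assembly, had log2 fold changes of -0.20, -0.37 and -0.47, all called. Psmb2 and Psmb1 also fell, and stood at -0.32 and -0.24 at 24h. Psmb11, a thymus form of Psmb5 whose gene lies in the neighbourhood of Psmb5 on chromosome 14, held 2 and 0 counts at 0h, then 1 and 0 by 6h, 3 and 5 by 12h and 9 and 11 by 24h. It was too low for the filter, and a fit without the filter called it higher at 24h (adjusted p = 0.022). Transcripts named as Psmb5, Psmb6 and Psmb7 pseudogenes held 1 or 2 counts each over all 8 libraries.

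The 6 Psmc ATPases form the ring that unfolds substrates. Of these 4 fell at 6h, 6 at 12h and 5 at 24h, and their summed level was 22.6% lower at 24h. Psmc5 stood at 205 and 197 CPM at 0h, then at 173 and 177 by 6h, 147 and 135 by 12h and 136 and 144 by 24h. The 0h libraries were the highest and the 6h libraries the next, and the 12h and 24h libraries overlapped. Psmc5 (ENSMUSG00000020708, chromosome 11, 106256154 to 106263120, plus strand) fell furthest of the cap, by 30.3% at 24h, and most of its fall was reached at 12h: the log2 fold changes were -0.20, -0.51 and -0.52 (SE 0.05 each, adjusted p = 0.0013, 1.6e-11 and 5.9e-12). Psmc1 stood at 321 and 321 CPM at 0h, then at 277 and 273 by 6h, 246 and 239 by 12h and 231 and 226 by 24h. The 4 times did not overlap and went down in order. Psmc1 (ENSMUSG00000021178, chromosome 12, 100110154 to 100123405, plus strand), whose tail docks into the alpha ring and helps to open it, had log2 fold changes of -0.22, -0.40 and -0.49 (SE 0.04 each, adjusted p = 8.3e-05, 2.6e-10 and 1.1e-12).

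Psmc2, Psmc3 and Psmc4 lay between, at -0.40, -0.33 and -0.34 at 24h, and Psmc4 was the other ATPase not called at 6h (-0.12, SE 0.05, adjusted p = 0.060). Psmc6 stood at 186 and 184 CPM at 0h, then at 181 and 179.8 by 6h, 167 and 165 by 12h and 172 and 175 by 24h. The later libraries were all below both 0h libraries, but by little. Psmc6 was called at 12h, at -0.16 (SE 0.04, adjusted p = 0.0021), and not at 24h, where it stood at -0.094 (SE 0.04, adjusted p = 0.054). Both depend on the scaling: the 12h call was lost with library totals (-0.091, adjusted p = 0.073), and 5 of 18 alternatives called the 24h fall, among them edgeR with DESeq2 size factors (-0.10, adjusted p = 0.036). Psmc6 was chosen for description after its values were seen, as were the other members in this account that are not catalytic, apart from Psma8, Psmb11 and the 3 largest called changes of core and of cap.

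Among the 11 Psmd genes for subunits without ATPase activity, 9 fell at 6h, 10 at 12h and 10 at 24h, and the summed level was 21.0% lower at 24h. The base subunits among them hold the ATPase ring. Psmd1 stood at 259 and 269 CPM at 0h, then at 242 and 237 by 6h, 201 and 194 by 12h and 187 and 192 by 24h. The libraries of the 4 times did not overlap, and the largest step was from 6h to 12h. Psmd1 (ENSMUSG00000026229, chromosome 1, 86064387 to 86139151, plus strand), a large scaffold of the base, had log2 fold changes of -0.14, -0.42 and -0.48 (SE 0.04 each, adjusted p = 0.012, 1.6e-10 and 4.0e-12). The 6h call of Psmd1 was lost with library totals in place of TMM and without the second 0h library. Psmd2 stood at 540.4 and 558 CPM at 0h, then at 494 and 508 by 6h, 449 and 446 by 12h and 435 and 424 by 24h. Psmd2, the scaffold that receives shuttle factors, went down from time to time with no overlap and fell by 21.8% at 24h (-0.35, SE 0.04, adjusted p = 2.6e-09), and Psmd4, a ubiquitin receptor, by 23% (-0.38, SE 0.04, adjusted p = 4.8e-09).

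The lid subunits surround Psmd14, the enzyme that cuts ubiquitin chains from the substrate. Psmd12 stood at 153 and 155 CPM at 0h, then at 135 and 129 by 6h, 115 and 108 by 12h and 111 and 112 by 24h. The 0h libraries were highest and the 6h libraries next, and the 12h and 24h libraries overlapped. Psmd12 (ENSMUSG00000020720, chromosome 11, 107479484 to 107504362, plus strand), a lid scaffold, reached its full fall by 12h, with log2 fold changes of -0.22, -0.47 and -0.46 (SE 0.04, 0.05 and 0.04, adjusted p = 0.00032, 1.3e-10 and 6.7e-11). Psmd14 stood at 171 and 170.5 CPM at 0h, then at 157 and 159 by 6h, 146 and 145 by 12h and 144 and 141 by 24h. Psmd14 went down in order with no overlap between times, was not called at 6h (-0.11, adjusted p = 0.057), and fell to -0.23 at 12h and -0.26 (SE 0.04, adjusted p = 2.3e-06) at 24h. The 12h call of Psmd14 was lost with the GC and length correction, which left -0.075. Psmd7 stood at 259 and 255 CPM at 0h, then at 233 and 228 by 6h, 202 and 192 by 12h and 189 and 181 by 24h. Psmd7, which pairs with Psmd14, also went down with no overlap between times, with log2 fold changes of -0.16 at 6h, -0.38 at 12h and -0.48 (SE 0.04, adjusted p = 6.6e-12) at 24h, all called. Psmd3, Psmd6 and Psmd13 fell by 19.6%, 24% and 23.2% at 24h.

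Psmd8 stood at 175 and 184 CPM at 0h, then at 170.5 and 190.3 by 6h, 178 and 174 by 12h and 183 and 174 by 24h. The libraries of all times overlapped those of 0h. Psmd8 (ENSMUSG00000030591, chromosome 7, 29174188 to 29180701, minus strand), a lid subunit that joins last, had log2 fold changes of 0.0082, -0.027 and -0.0096 with SE 0.05 each and adjusted p-values of 0.94, 0.69 and 0.88, and the sign of its 24h value turned with library totals and with the GC and length correction. With the mean-centred form of that correction Psmd8 was called lower at 12h (-0.11, adjusted p = 0.027) and 24h (-0.11, adjusted p = 0.021). Psmd11 stood at 144 and 145 CPM at 0h, then at 130.4 and 132 by 6h, 131 and 129.7 by 12h and 127 and 134 by 24h. Its later libraries were all below the 0h libraries and overlapped one another. Psmd11, a lid subunit that also touches the core, was called at all 3 times at a level that did not deepen, with log2 fold changes of -0.14, -0.15 and -0.14 (SE 0.04 each, adjusted p = 0.023, 0.0051 and 0.0059). All 3 calls of Psmd11 were lost with library totals and without the second 0h library.

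Psmd5, Psmd9 and Psmd10 carry the Psmd name but are chaperones that help the ATPase ring to assemble and leave the finished cap. Their level was the lowest per length of the cap, 35.4 (Psmd5), 15.9 (Psmd9) and 22.8 (Psmd10) CPM per kilobase at 0h, and their sum was 13.7% lower at 24h. Psmd9 stood at 41.7 and 40.6 CPM at 0h, then at 32.5 and 36.3 by 6h, 34.6 and 32.6 by 12h and 31.1 and 31.3 by 24h. Psmd9 (ENSMUSG00000029440, chromosome 5, 123169413 to 123250131, plus strand) was below both 0h libraries in every later library and had log2 fold changes of -0.25, -0.29 and -0.40 (SE 0.07 each, adjusted p = 0.0057, 0.00050 and 5.0e-06), with 25.5% of its exon length shared with another gene. The 6h call of Psmd9 was lost without the first 0h or the first 6h library. Psmd10 was called at 12h (-0.30) and 24h (-0.28, SE 0.07, adjusted p = 0.0018), and Psmd5 at 24h only (-0.16, SE 0.04, adjusted p = 0.0025). Both calls of Psmd10 were lost with the GC and length correction, which left -0.12 at 12h and -0.094 at 24h, and that of Psmd5 with library totals (-0.091, adjusted p = 0.068).

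The steps between later times, which do not use the 0h libraries, placed most of the fall before 12h. From 6h to 12h, 24 of 35 members fell further (11 core and 13 cap) and 0 rose, where 9.78% of all genes tested were called lower, with a median log2 fold change of -0.16 for the core and -0.16 for the cap. Groups did not overlap, with 12h lower, for 28 members, against 28.8% of all genes, and with 12h higher for Psmd5 alone, against 29.5%. The largest further falls were those of Psmc5, -0.31 (SE 0.05, adjusted p = 4.7e-06), Psmd1, -0.28 (SE 0.04, adjusted p = 5.3e-06), and Psmd12, -0.24 (SE 0.05, adjusted p = 0.00019). DESeq2 called 20, where it called 1632 of all 14263 genes, 854 of them higher. At an unadjusted p under 0.05 edgeR gave 27, with no share of all genes given here. The test against a fold of 1.2 gave 0. Without the second 12h library the medians were -0.15 for the core and -0.15 for the cap. Without the second 6h library they were -0.10 and -0.13. In both fits fewer members were called lower.

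From 12h to 24h no member was called by edgeR or by DESeq2, where edgeR called 3.04% of all genes tested lower and 3.41% higher. At an unadjusted p under 0.05 edgeR gave 11 members lower and 0 higher, and DESeq2 9 and 0. The share of all genes at that threshold is not given here, so these counts cannot be set against a background. The median log2 fold change was -0.073 for the core and -0.035 for the cap, and the 24h libraries lay below both 12h libraries for 20 of 35 members (23.3% of all genes) and above them for 3 (25.9%). Psma5 and Psmb6 came nearest the threshold, at -0.14 (SE 0.05, adjusted p = 0.072) and -0.13 (SE 0.05, adjusted p = 0.099). Without the first 6h library 3 members were called lower.

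By summed levels the balance of core and cap moved little. By the members' median levels, given in a later section, it moved further towards the cap, but a median of levels can rest on different members at each time. The median log2 fold changes at 24h were alike, -0.37 for the core and -0.37 for the cap. With the GC and length correction they were -0.30 and -0.32, the larger fall being that of the cap. The core sum divided by the cap sum was 0.737 ± 0.0109 at 0h, then 0.719 ± 0.0142 by 6h, 0.725 ± 0.00186 by 12h and 0.714 ± 0.0158 by 24h (SD, n = 2), a mean 3.18% lower at 24h. The 24h libraries, at 0.725 and 0.702, were below the 0h libraries, at 0.745 and 0.729, and the 6h libraries, at 0.709 and 0.729, nearly reached the lower 0h library. No p is given for a sum over members. The alpha sum divided by the beta sum was 1.33 ± 0.00670 at 0h and 1.35 ± 0.0303 at 24h (SD, n = 2), and the ATPase sum divided by the sum of the 11 other cap subunits was 0.539 ± 0.00121 and 0.528 ± 0.00324 (SD, n = 2). Per kilobase of the main annotated transcript, the 14 core genes other than Psma8 and Psmb11 stood at 81.9 to 332 CPM at 0h with a median of 192, and the 17 cap genes other than the chaperones at 50.7 to 202 with a median of 120. At 24h these medians were 137 and 95 CPM per kilobase. The subunits, which the complex holds in equal numbers, thus differed in transcript level by up to 4.05 times in the core and 3.97 times in the cap at 0h, and by 5.76 and 7.33 times when the length of all exons together was used.

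Other genes of the pathway were taken from 7 lists of 41 genes, of which 40 were matched and 39 tested. At 6h 11 of the 39 were lower and 4 higher, against 8.58% and 9.74% of all genes. At 12h it was 25 and 3, against 21.6% and 22.1%, and at 24h 24 and 5, against 24.8% and 26.1%. The median log2 fold change at 24h was -0.35 for the core assembly chaperones, -0.30 for the immunoproteasome genes, -0.19 for the activators and inhibitor, -0.17 for the cap-binding proteins, -0.13 for shuttle factors and p97 and -0.081 for ubiquitin and E1 genes, beside 0.017 for all genes tested. All 5 core assembly chaperones fell, and Pomp, which matures the core, went from 174 and 179 CPM at 0h to 131 and 125 at 24h, log2 fold changes of -0.22, -0.35 and -0.46 (adjusted p = 0.00060, 9.4e-08 and 1.3e-10). All 3 immunoproteasome genes, whose products replace the active sites of the standard core, fell at 24h. Psmb8 stood at 118 and 113 CPM at 0h, then at 98.0 and 106 by 6h, 97.9 and 106 by 12h and 100.1 and 96.6 by 24h. Psmb8 had log2 fold changes of -0.18, -0.18 and -0.23 and Psmb9 of -0.30, -0.28 and -0.30, all called. The 6h and 12h calls of both were lost without the first 0h library, those of Psmb8 also with library totals and without the first library of the later time, and the 24h call of Psmb9 without the second 24h library. Psmb10 was not called at 6h (-0.075, adjusted p = 0.40) and fell to -0.30 at 12h and -0.39 (SE 0.06, adjusted p = 3.6e-07) at 24h. Of the 5 activators and inhibitor 4 fell at 24h, led by Psme2, a subunit of an activator that interferon induces (-0.38, SE 0.05, adjusted p = 1.1e-07), with Psme1 at -0.24 (SE 0.05, adjusted p = 8.3e-05) and Psme3 at -0.16 (SE 0.04, adjusted p = 0.0013), and Psme4 was not called. The call of Psme3 was lost with the GC and length correction (-0.061, adjusted p = 0.17).

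Of 8 genes for proteins that bind the cap 5 fell and 1 rose at 24h. The falls with the smallest adjusted p were those of Txnl1, -0.32 (SE 0.04, adjusted p = 2.6e-07), Adrm1, a ubiquitin receptor, -0.29 (SE 0.05, adjusted p = 1.2e-06), and Sem1, a small cap subunit, -0.36 (SE 0.06, adjusted p = 1.2e-06). Zfand5, which raises proteasome activity, was the one that rose, at 0.22 (SE 0.05, adjusted p = 0.00019), a call lost with the mean-centred GC and length correction (0.041, adjusted p = 0.47). Of 8 tested genes for shuttle factors and the p97 unfoldase 4 fell and 1 rose. Nsfl1c stood at 142 and 147 CPM at 0h, then at 124 and 128 by 6h, 105 and 100.4 by 12h and 94.1 and 98.5 by 24h. Nsfl1c, a cofactor of the unfoldase, fell by 33.3% at 24h (-0.59, SE 0.05, adjusted p = 3.9e-13), and Vcp, the unfoldase itself, by 27.2% (-0.46, SE 0.04, adjusted p = 4.2e-12). The shuttle factor Ubqln2 was the one that rose, by 0.18 (SE 0.06, adjusted p = 0.016). Of 5 ubiquitin and E1 genes 2 fell: Ubb (-0.21, SE 0.04, adjusted p = 0.00010) and Uba1 (-0.10, SE 0.04, adjusted p = 0.031). Counts of the ubiquitin genes are uncertain where reads also match their near-identical copies. The call of Uba1 was lost without any 1 of the 0h or 24h libraries and with library totals, and that of Ubqln2 with DESeq2, with the mean-centred GC and length correction (0.11, adjusted p = 0.12), without the first 0h library and without the second 24h library.

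Of 5 regulators of proteasome genes and of proteasome import into the nucleus, 3 were higher and 1 lower at 24h, with a median log2 fold change of 0.15. Nfe2l1 stood at 225 and 234 CPM at 0h, then at 299 and 304 by 6h, 304 and 314 by 12h and 361 and 355 by 24h. Each later library was above both 0h libraries, and the 24h libraries were the highest. Nfe2l1 (ENSMUSG00000038615, chromosome 11, 96817414 to 96829968, minus strand) encodes NRF1, the transcription factor known to raise proteasome genes when proteasome activity runs short, and its mRNA rose, with log2 fold changes of 0.39, 0.43 and 0.64 (SE 0.04 each, adjusted p = 2.4e-09, 9.3e-11 and 1.0e-15). It also rose from 12h to 24h, by 0.21 (SE 0.04, adjusted p = 0.00050). NRF1 is controlled mainly as a protein, which was not measured. Akirin2, which brings proteasomes into the nucleus, rose at all 3 times with 0.23, 0.36 and 0.39 (adjusted p = 0.0038, 3.4e-06 and 4.1e-07), the 6h call being lost without the second 0h or the second 6h library. Ddi2, the protease that activates NRF1, rose at 24h (0.15, SE 0.05, adjusted p = 0.0064), a call lost without the first 0h library and with the mean-centred GC and length correction, where the estimate was -0.0072, and Ngly1, which removes its sugars, fell (-0.19, SE 0.06, adjusted p = 0.010), a call lost with library totals, without the second 0h library and without the first 24h library. Nfe2l2, which encodes NRF2, was higher at 6h (0.16, SE 0.05, adjusted p = 0.026), a call lost with DESeq2 and without the first or the second 0h library or the first 6h library, and was not called at 12h or 24h.

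**Figure D5:**
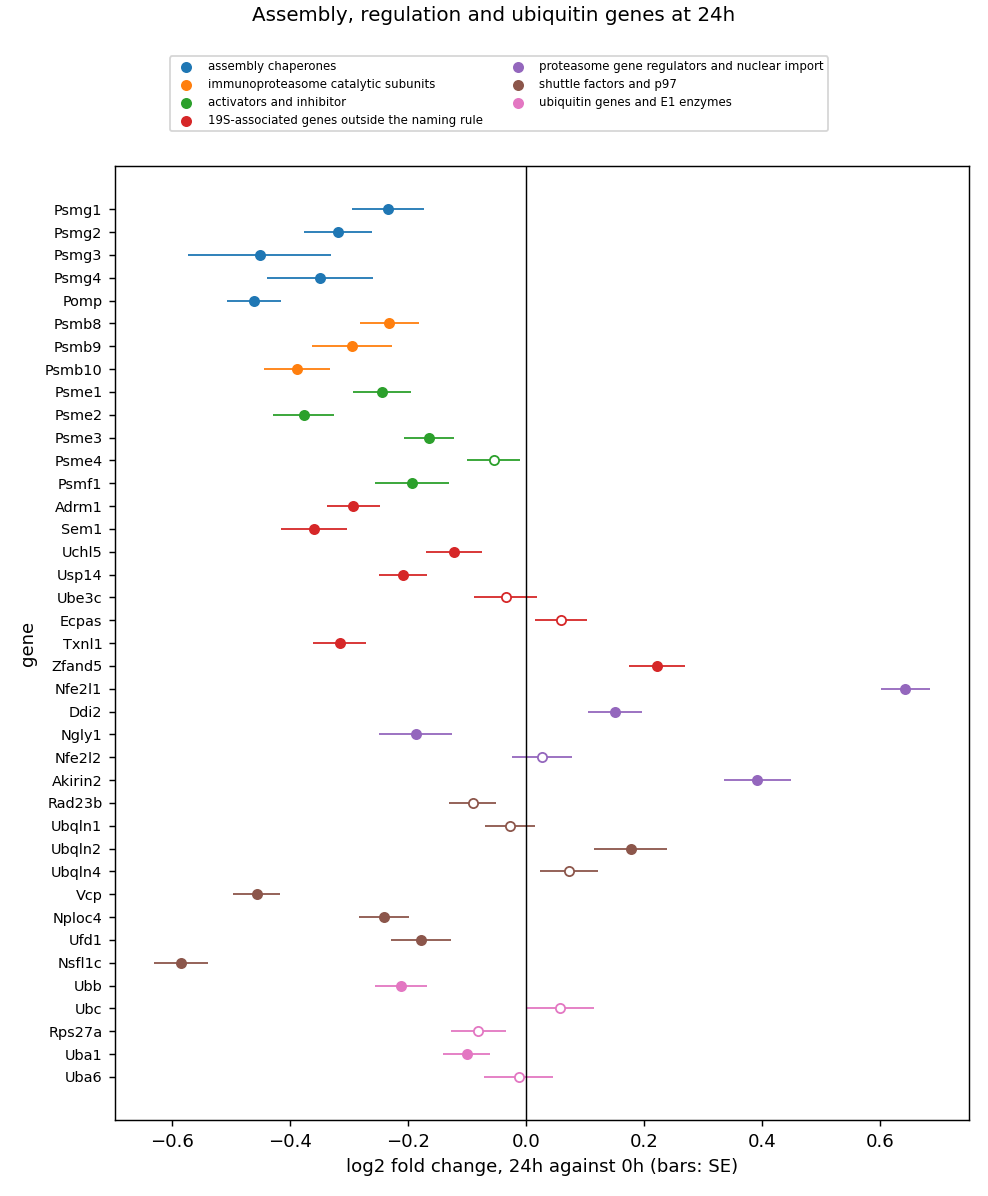
Log2 fold change at 24h against 0h (x axis) of the 39 tested genes of the 7 pathway lists (y axis), coloured by list; filled points were called and open points were not, and bars are SE. The core assembly chaperones and immunoproteasome genes lie left of 0, and Nfe2l1, Akirin2, Zfand5, Ubqln2 and Ddi2 are the filled points right of 0.

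The 5 members with a TGACNNNGC match in their promoter window, the sequences of 2 of which are printed above, lay across the range of the members. At 24h against 0h Psmb6 stood at -0.57, Psmd12 at -0.46, Psmd9 at -0.40, Psmb5 at -0.17 and Psmc6 at -0.094 on the log2 scale. Psmd8, with no match, stood at -0.0096, and Psma5, with no match, at -0.55.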

How the data were processed

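RNA was sequenced from 8 libraries of sorted mouse leukaemia cells, 2 at each of 0h, 6h, 12h and 24h. RNeasy purification and a TruSeq PE kit were used, per the labels' protocols. The deposited values are raw counts per Ensembl gene, 1 table per library, which the authors made with STAR, SAMtools 1.3 and HTSeq 2.0.3. These tools and build mm10 are named in the notes on processing by the submitters. Not given in the sources used here are STAR's version, the annotation, how strand was set and whether rows were filtered. Summary rows that name no gene stayed out of library sizes and tests. Names and coordinates came from GENCODE M21, which matched 46574 of 47069 gene rows. Groups are the labelled time points.

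Counts were tested with edgeR 4.0.16 in R 4.3.3: filterByExpr by time point left 14263 genes, libraries were scaled by TMM, and 1 quasi-likelihood fit over all 8 libraries gave each comparison (residual df 4, biological coefficient of variation 3.10%). Tests were two-sided, with Benjamini-Hochberg adjustment over all genes tested and a threshold of 0.05. The SE is the log2 fold change divided by the square root of F. CPM per kilobase used the principal transcript's length. Named were the catalytic subunits, Psma8, Psmb11, the 3 largest called changes of core and of cap at each time, and from each pathway list up to 3 called genes with the smallest adjusted p at 24h, plus Psmb8, Psmb9, Psmb10, Nfe2l1, Pomp and Klf4. Other genes were named after their values were seen. Some genes of the marker and pathway lists are not reported here and were left out of the lists' counts and sums. The members and lists were chosen with earlier results of these data known. The scripts were tested on simulated data. The alternatives were DESeq2 1.42.0, its size factors in edgeR, library totals, no filter or a stricter one (mean log2 CPM of at least 1), a replicate block, fits of only the 4 libraries compared, testing against a fold of 1.2, a GC and length correction in 2 forms, and leaving out each library. Promoter sequences are RefSeq's, of build GRCm38.p6. Precision is set by the counts, and no library was left out.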

Additional observations from a re-analysis of the deposited data

How the results depend on the processing

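No call of a member changed direction. Psmd8, not called, changed sign in some alternatives at 6h, 12h and 24h against 0h. So did Psma8, not called, at 6h and 24h, and Psma1 and Psmc6 at 6h, where they were not called. Ddi2, called higher at 24h, had an estimate of -0.0072 with the mean-centred GC and length correction. With 2 libraries a time, part of the calls at 6h and from 6h to 12h depended on a single library, and small falls were the first to be lost. Others were kept whichever library was left out, among them those of Psma5, Psmb6 and Psmc1 at 6h and of Psmc5 and Psmd1 from 6h to 12h. Leaving out each library in turn gave 11 to 28 members called at 6h against 0h, 30 to 31 at 12h, 31 to 33 at 24h, 9 to 26 for 12h against 6h, 0 to 3 for 24h against 12h and 30 to 33 for the time course. A library left alone at its time was assumed to vary like the others. The test against a fold of 1.2 called 0, 14 and 19 members at 6h, 12h and 24h against 0h and 0 for 12h against 6h. For 24h against 12h, where edgeR called 0, the fit without a filter called 2, the fit of the 4 libraries alone 2, and the mean-centred GC and length correction 1, the cause of which was not tested. The time course was not run for the 4-library fit or the fold test. The summed level at 24h over 0h was 0.764 for the core, 0.798 with library totals and 0.718 as a ratio of the members' median levels (0.753 to 0.774 leaving out a library). It was 0.789 for the cap and 0.824 with library totals (0.780 to 0.798), and 0.968 for core over cap, 0.898 by median levels (0.953 to 0.983). Library totals moved the median of all genes at 24h to 0.081 and the share of higher calls from 51.3% to 62.7%. With them 21, 29 and 29 members were lower at 6h, 12h and 24h. Of all 14263 genes 2459, 5945 and 7161 were then called, 1718, 3882 and 4490 of them higher. The mean-centred GC and length correction moved the median of all genes to -0.13 and the share of higher calls to 28.7%, with 29, 34 and 34 members lower. It called 4041, 7278 and 7992 of all genes, only 926, 1954 and 2297 of them higher, so the background moved down too. The core and cap medians at 24h relative to all genes were then -0.32 and -0.35. The other form of that correction left 19, 29 and 31 members lower. It called 2793, 6170 and 7171 of all genes, 1315, 3171 and 3754 of them higher. The replicate numbers gave no sign of pairing the libraries (correlations of same-numbered deviations over all genes tested of -0.017 to 0.021). These cannot exclude pairing, since noise in low counts could hide it. With the replicate number as a block 26, 31 and 32 members were lower at 6h, 12h and 24h, 23 for 12h against 6h and 0 for 24h against 12h. Of all 14263 genes 2495, 6116, 7160, 2811 and 836 were then called in these comparisons, 1343, 3102, 3682, 1491 and 450 of them higher. Alternative values against 0h were counted for 10 members only, the catalytic subunits and those with the largest called falls. Of these 540 values 518 kept their side of the threshold, 17 lost the call and 5 gained it. Most of these members were picked for large falls in the same data, so the count says little about members with small falls.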

Other observations

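Members that fell more early also tended to have lower estimates late. Across the 35 tested members, the log2 fold change of 6h against 0h and that of 24h against 12h, which share no library, had a Pearson r of 0.58 and a Spearman rho of 0.48. These are genes of the same 8 libraries and not independent replicates. The same correlation over all genes tested is not given here, so nothing shows it to be particular to the members. Psma8, the member with the highest estimate for 24h against 12h (0.17, SE 0.11), is among the points and has low counts. The log2 fold change at 24h against 0h had an r of -0.22 (rho -0.16) with the GC content of the gene's longest transcript and of -0.39 (rho -0.27) with the log10 of its CPM at 0h. For 24 of the 35 members the estimates at 6h, 12h and 24h against 0h lay each below the one before.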
